A study of Mus musculus with 8 samples.

Results

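The mammary cells compared here were basal-gate cells of mice carrying an inducible ΔNp63 transgene (DNp63 basal, 2 libraries) and basal-gate cells of CD1 mice, an outbred strain (CD1 basal, 2 libraries). They made up 4 of the 8 RNA-seq libraries of the study and were picked out by their labels alone. All 49671 genes of the table were considered, and 16900 were high enough to be tested. The other 4 libraries were 2 of CD1 luminal and 2 of DNp63 luminal cells, and they entered the fit as a shared estimate of the spread and served to compare the gates. The DNp63 mice were labelled K8rtTA/TetOCre/Rosa26-DNp63-IRES-GFP. In such mice doxycycline lets the rtTA protein, made under the keratin 8 promoter, switch on Cre, and Cre then opens a Rosa26 cassette that encodes ΔNp63 together with GFP. The promoter is one of luminal epithelium, and only GFP-positive cells were sorted from these mice. Cells of both groups were negative for the surface proteins CD45, CD31 and CD140a, positive for CD24 and high for CD29, and 5000 were sorted for each library. The luminal libraries came from 40000 CD29-low cells each. The labels give every mouse as female and the backgrounds as mixed. Neither their age nor the doxycycline schedule of the K8rtTA mice is given in the sources read. Strain, any doxycycline treatment and the GFP gate went together with the transgene and cannot be told apart from it.

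Basal cells of the mammary gland form the outer layer of ducts and alveoli, contract like smooth muscle, rest on the basement membrane and express p63 with the keratin pair Krt5 and Krt14. Luminal cells line the lumen, carry the simple keratins Krt8 and Krt18, hold the receptors for estrogen, progesterone and prolactin, and make milk proteins. ΔNp63 is the p63 form without the N-terminal activation domain, and it is the main form of the basal layer in the mammary gland and in skin.

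The comparison asked how GFP-positive cells that occupied the basal gate of DNp63 mice differed from the basal cells of mice without the transgene. Krt14, Krt5, Acta2 and Trp63 were abundant in all 4 libraries of the basal gate, and none of them was called. With 2 libraries a group this does not show equal levels, and for Krt5 and Trp63 the groups did not overlap. Transcripts of blood vessels were abundant as well, with Cdh5 of endothelium at 15016 and 14684 (CD1 basal) against 15106 and 11042 (DNp63 basal). The DNp63 basal cells had less RNA of 4 simple keratins, of the hormone receptors Prlr and Esr1, of 5 tight junction genes and of 7 milk genes, among which the caseins Csn1s2a, Csn2 and Csn1s1 had the largest differences of the comparison. They had more RNA of the keratin Krt15, of galectin-7 (Lgals7) and of the matrix proteoglycan versican (Vcan). Of 16900 genes tested, 119 were called at a Benjamini-Hochberg adjusted p under 0.05 in limma's moderated test (0.704%), 35 higher (0.207%) and 84 lower (0.497%) in DNp63 basal. At least a 2-fold change was seen in 27 of the higher and 73 of the lower genes. An unadjusted p under 0.05 in the same test was found for 1902 of the 16900 genes. That share is the background for the counts of unadjusted p given for gene lists below. Over all genes tested the median log2 difference was -0.02.

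**Figure D1:**
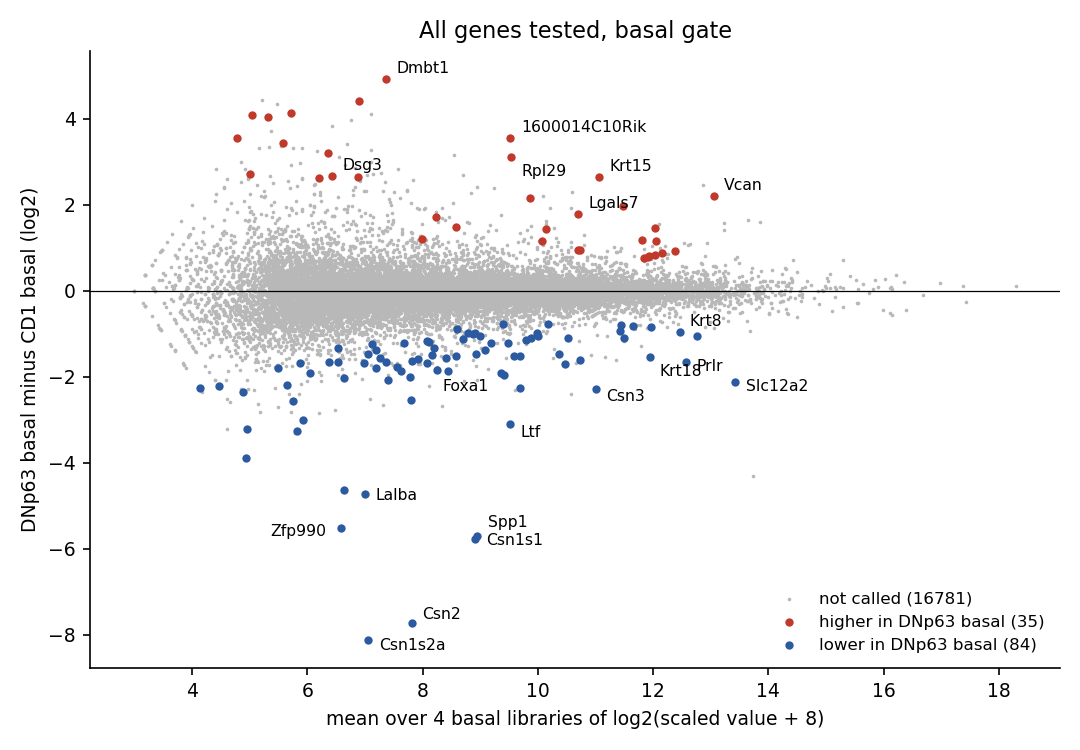
Every gene tested, with its mean log2(scaled value + 8) over the 4 basal libraries on the x axis and the log2 difference, DNp63 basal minus CD1 basal, on the y axis. Red points are the 35 genes called higher, blue points the 84 called lower and grey points the 16781 genes not called. The casein genes Csn1s2a and Csn2 lie lowest, at -8.12 and -7.72, and Dmbt1 lies highest among the called genes, at 4.92.

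The calls rested on 2 libraries a group and moved with them. Leaving out 1 basal library leaves a group with a single library, assumed to vary like the other groups, and then 3 genes were called without CD1 basal 1, 43 without CD1 basal 2, 10 without DNp63 basal 1 and 25 without DNp63 basal 2. Without 1 luminal library the count was 65 or 70 (DNp63 luminal) and 188 or 194 (CD1 luminal). Voom on recovered reads called 64. Every one of the 119 genes kept its direction in each of these fits in which it was tested. The groups did not overlap for any of the 119, so leaving out a library could hardly turn a sign. Whether the 2 libraries of a group are from different mice is not labelled. The p-values rest on the spread between the 2 libraries within each of the 4 groups, pooled and moderated by limma, and that spread may be technical.

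Values below are reads scaled to 20000000 per library, written for library 1 and library 2, and 1 read was worth 3.99 to 4.83 in the basal libraries. These held 4136983 to 5009825 reads assigned to genes. Replicates of either group correlated at Pearson r = 0.974 over the log2 values of the genes tested, and libraries of different groups at 0.949 to 0.967. DNp63 basal 2 stood apart in several respects. Xist, the RNA that coats the inactive X, was at 55545 and 64473 in CD1 basal, at 60686 in DNp63 basal 1 and at 141 in DNp63 basal 2, and DNp63 luminal 2 was also low at 36 against 111346 in DNp63 luminal 1. The Y-linked genes Ddx3y, Eif2s3y, Kdm5d and Uty were at 0 or at a single read in every library. Ddx3x, an X-linked gene that escapes inactivation, was at 23631 in DNp63 basal 2 and at 30282 to 33136 in the other 3 basal libraries. Without DNp63 basal 2 the Xist difference went from -4.32 (adjusted p = 0.724, not called) to 0.01.

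Trp63, which encodes p63 itself, was the targeted gene. Its values were 5457 and 7079 (CD1 basal) against 8088 and 8306 (DNp63 basal), so the groups did not overlap. The log2 difference of 0.39 (SE 0.18) was not called (limma adjusted p = 0.455). In the luminal gate the same gene went from 61 and 45 to 1297 and 1460, and the difference between the gates was called (-4.06, adjusted p = 0.000551). Reads of the transgene and of the resident gene cannot be told apart in these values.

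Of 6 basal and stratified keratins tested, 1 was higher and 0 were lower, with a median log2 difference of 0.38. Krt14 stood at 36528 and 30261 (CD1 basal) against 35298 and 33798 (DNp63 basal), a difference of 0.05 (adjusted p = 0.97) with overlapping groups. Krt5, its partner, was at 10901 and 7502 against 13479 and 14973, a difference of 0.65 that was not called (adjusted p = 0.217). Krt15, a keratin of the basal layer of stratified epithelia, was at 1104 and 631 in CD1 basal and at 4742 and 5831 in DNp63 basal. Both DNp63 libraries lay far above both CD1 libraries, and the rise of 2.64 (SE 0.31) was called (adjusted p = 0.0117). Krt15 lies on chromosome 11 (100131758 to 100135928, minus strand of GRCm38). In the luminal gate Krt15 was low in both mice, at 227 and 134 in CD1 and 325 and 376 in DNp63, and the difference between gates was not called (1.73, adjusted p = 0.163).

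Of 28 genes linked to p63 in stratified epithelium, 2 were called higher and 0 lower, with a median of 0.38, and 24 of the 28 had a difference above 0. In 18 of them both DNp63 libraries lay above both CD1 libraries, against 19.8% of all genes tested. Dsg3, the desmosomal cadherin of stratified epithelia, was at 28 and 24 (CD1 basal) against 220 and 194 (DNp63 basal). It rose by 2.66 (SE 0.34, adjusted p = 0.015). Dsc3, the desmocollin found with Dsg3, went from 106 and 96 to 350 and 547 without being called (2.03, adjusted p = 0.0819). Igfbp3, a secreted binding protein of insulin-like growth factors, was at 4611 and 6552 against 15127 and 17578, and was not called either (1.56, adjusted p = 0.285). Krt15 was not called once any 1 of the 4 basal libraries was left out (adjusted p of 0.0537 to 0.112), nor was Dsg3 without CD1 basal 1 or CD1 basal 2. Without a DNp63 basal library Dsg3 was too low to be tested. Its low values in the other groups mean that it entered the test only through both DNp63 basal libraries. Its call, here and in the count of the list, carries that limit.

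Lgals7, which encodes the lectin galectin-7 of stratified epithelia, lies on chromosome 7 (28863853 to 28866284, plus strand). It was at 866 and 883 in CD1 basal and at 2850 and 3215 in DNp63 basal, and it rose by 1.78 (SE 0.23, adjusted p = 0.015). Of the 30 genes listed for keratinocyte differentiation 16 could be tested, and Lgals7 was the 1 called, with a list median of -0.07. It too was not called without any 1 of the basal libraries (adjusted p of 0.0883 to 0.161). The defining transcripts of terminal differentiation were at or near 0 in all 4 libraries. Ivl (involucrin), Lor (loricrin) and Flg (filaggrin) had values of 0 to 5.

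**Figure D2:**
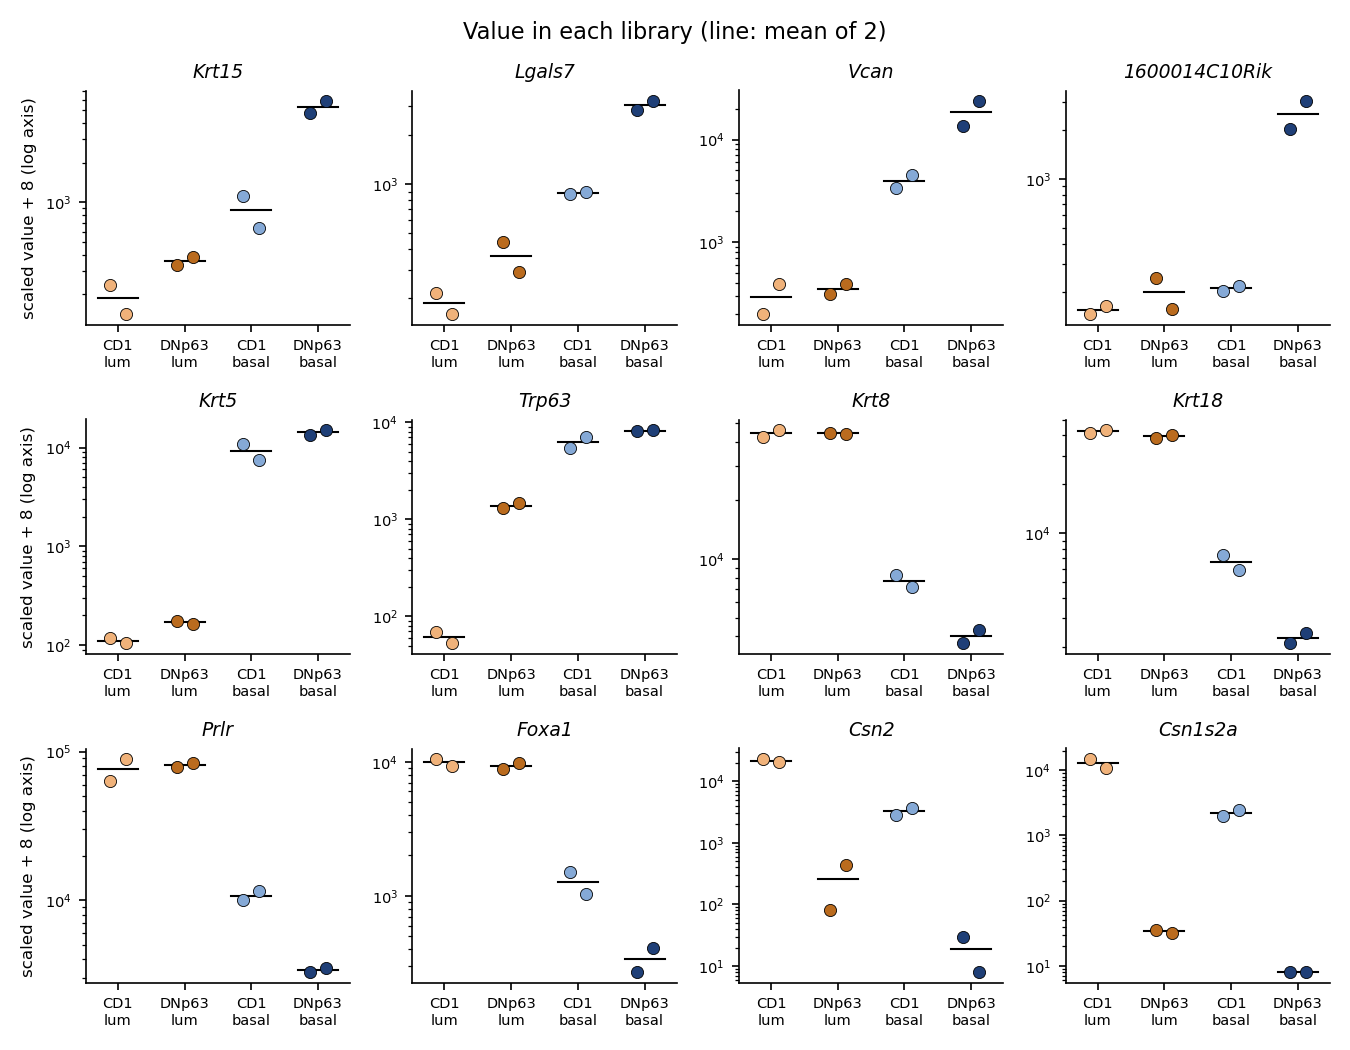
Scaled value + 8 on log axes for 12 genes in each of the 8 libraries, with points for libraries and a line for the mean of 2. Krt15 and Lgals7 were highest in DNp63 basal, Krt5 and Trp63 were higher in both DNp63 basal libraries than in both CD1 basal libraries without being called (0.65 and 0.39), and Krt8, Krt18, Prlr and Foxa1 were lower in CD1 basal than in the luminal groups and lower again in DNp63 basal.

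Contraction and attachment to the basement membrane are the defining tasks of basal cells. Of 20 contractile genes 0 were called by limma or by voom, 2 had an unadjusted p under 0.05, and the median was -0.22 with 18 differences below 0. In 8 of them both DNp63 libraries lay below both CD1 libraries, against 22.8% of all genes tested. In 2 they lay above, against 19.8%. Acta2, smooth muscle actin, was at 59166 and 51343 (CD1 basal) against 50512 and 56442 (DNp63 basal), a difference of -0.05 (adjusted p = 0.959). Of 22 hemidesmosome and laminin genes 0 were called by limma or by voom, 6 had an unadjusted p under 0.05, and the median was 0.24 with 17 differences above 0. In 14 of them both DNp63 libraries lay above both CD1 libraries, and in 4 below. Itgb4, the integrin chain of hemidesmosomes, was at 4034 and 3194 against 5863 and 5652 (0.68, adjusted p = 0.0786). Col7a1, the collagen of anchoring fibrils, was at 4730 and 5769 against 9610 and 13213 (adjusted p = 0.245). Of 23 other genes listed for basal identity 1 was called, the homeobox gene Meis1, which fell by 0.99 (SE 0.17, adjusted p = 0.0436). Meis1 did not mark basal cells in these libraries, being at 1302 and 1401 in CD1 luminal and at 623 and 695 in CD1 basal. It also fell in the luminal gate (-0.75, adjusted p = 0.0435).

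Simple keratins, the keratins of single-layered epithelium, made up one group of the lower genes. Krt18 (chromosome 15, 102028180 to 102032027, plus strand) was at 7339 and 5897 in CD1 basal and at 2104 and 2423 in DNp63 basal, a fall of 1.54 on the log2 scale (SE 0.14, adjusted p = 0.00425). Krt8, its partner, was at 8264 and 7206 against 3688 and 4293, a difference of -0.96 (SE 0.13, adjusted p = 0.0162). The groups were well apart for both genes, while the CD1 luminal libraries held 41482 and 43028 of Krt18. Krt7 (-1.52, adjusted p = 0.0132) and Krt19 (-0.95, adjusted p = 0.0147), the other keratins of ductal epithelium, were lower as well. Thus 4 of the 5 simple keratins tested were called lower, and the fifth, Krt23, was at 275 and 428 against 565 and 938 (1.06, adjusted p = 0.278). Without CD1 basal 1 or without DNp63 basal 1 none of the 5 was called, without DNp63 basal 2 1 was, and without CD1 basal 2 3 were, and the median stayed between -1.08 and -0.86. In bulk RNA, fewer cells of a type and less RNA per cell cannot be told apart.

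Of 24 genes shared by luminal cells, 7 were lower and 0 higher (median -0.78), and in 15 both DNp63 libraries lay below both CD1 libraries, against 22.8% of all genes tested. Cldn8, a claudin of tight junctions, went from 152 and 96 to 9 and 20 (-2.57, SE 0.32, adjusted p = 0.0147). Muc1, an apical mucin, went from 390 and 280 to 64 and 83 (-2.07, SE 0.28, adjusted p = 0.0189). Cldn4 was lower as well (-1.47, adjusted p = 0.00425), and Cldn3, Cldn7, the protease inhibitor Spint1 and the transcription factor Elf3 completed the 7. Grhl2 and Esrp1, which regulate epithelial transcription and splicing, were at differences of -0.05 and 0.11 and were not called. Summed over the 24 genes, the CD1 basal libraries held 41608 and 34572 and the DNp63 basal libraries 26427 and 27942. Leaving out CD1 basal 1 or DNp63 basal 1 left 0 of these 24 genes called, and leaving out CD1 basal 2 or DNp63 basal 2 left 4 and 2.

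Tight junction genes, which seal the lumen, overlap that list in their claudins. Of 19 tested, 5 were lower and 0 higher (median -0.89). Cgn, the junction adaptor cingulin, was at 243 and 192 (CD1 basal) against 60 and 63 (DNp63 basal) (-1.69, SE 0.19, adjusted p = 0.00889). Cldn1 and F11r had differences above 0, and Cldn1 was at 184 and 344 against 692 and 614 without being called (1.34, adjusted p = 0.116). Pkp2, a plakophilin of simple epithelial desmosomes, fell by 1.57 (SE 0.21, adjusted p = 0.0171). Of the 19, 0 were called without CD1 basal 1 or without DNp63 basal 1, 4 without CD1 basal 2 and 2 without DNp63 basal 2.

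Of 17 hormone-sensing genes, 5 were lower and 0 higher, with a median of -1.26. Prlr, the receptor for prolactin, was at 9985 and 11534 in CD1 basal and at 3279 and 3476 in DNp63 basal, a difference of -1.67 (SE 0.16, adjusted p = 0.005). Foxa1, the factor that opens chromatin for the estrogen receptor, was at 1488 and 1030 against 262 and 402 (-1.91, SE 0.23, adjusted p = 0.0132). Esr1, the estrogen receptor, was at 1241 and 1470 against 628 and 624 (-1.10, SE 0.18, adjusted p = 0.039). For these genes the groups did not overlap. Wnt4 and Cited1, a Wnt ligand and a transcriptional coregulator of hormone-responsive cells, were lower by differences of -1.39 (adjusted p = 0.0362) and -1.47 (adjusted p = 0.0443). Pgr, the progesterone receptor, was at 1781 and 1577 against 911 and 1315 and was not called (-0.62, adjusted p = 0.529). Without 1 basal library 0 (CD1 basal 1 or DNp63 basal 1), 2 (CD1 basal 2) or 1 (DNp63 basal 2) of them was called.

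**Figure D3:**
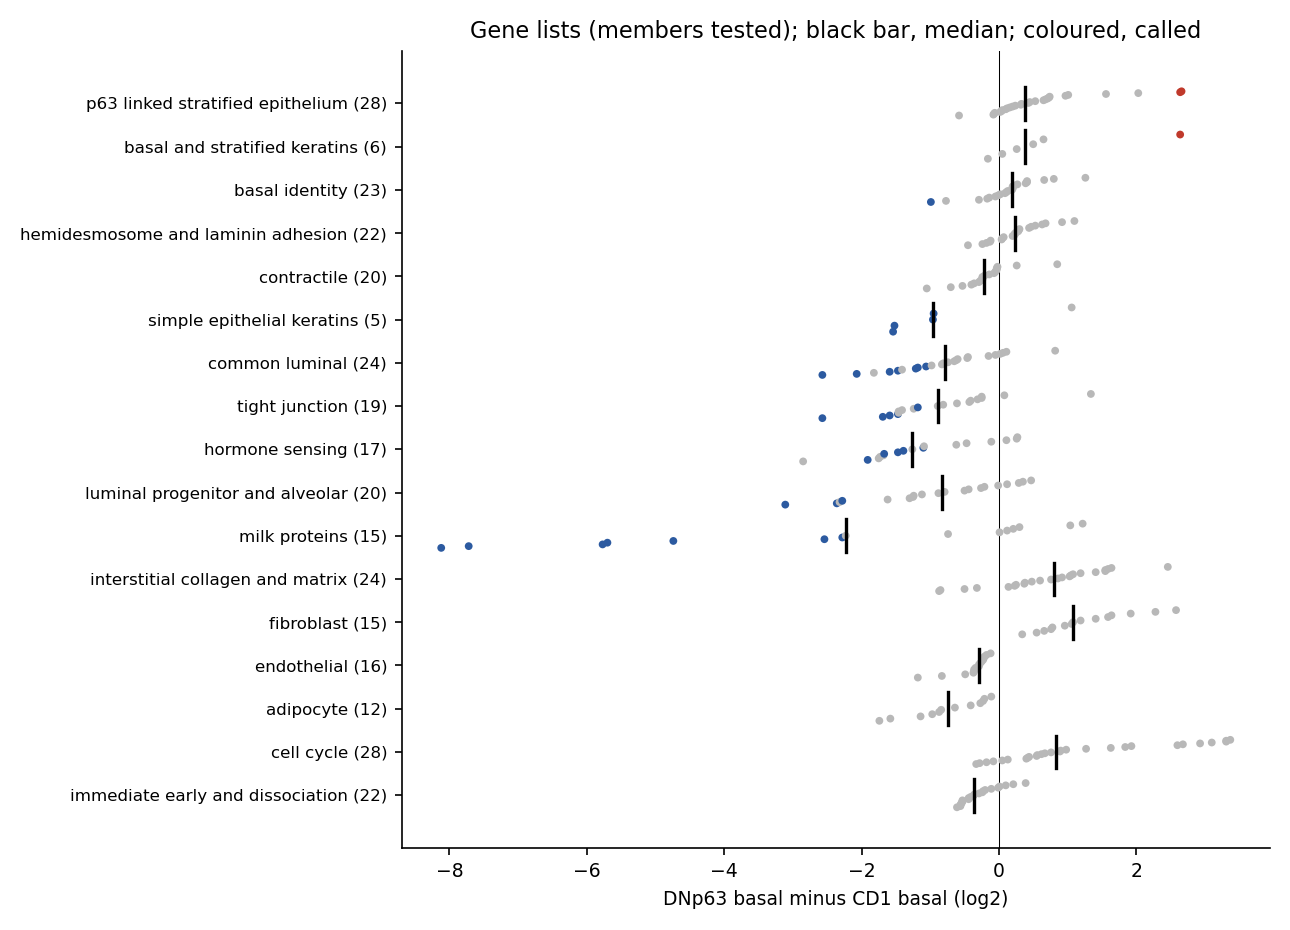
Log2 difference, DNp63 basal minus CD1 basal, for the tested members of 17 gene lists (number tested in brackets). Each point is a gene, red or blue where called higher or lower, and the black bar is the list's median. The luminal lists lie to the left, with the milk protein median at -2.23, and the fibroblast, matrix and cell cycle medians lie to the right (1.08, 0.81 and 0.83) with 0 members called.

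The 3 genes with the largest differences of the comparison were caseins. Csn1s2a, an alpha casein (chromosome 5, 87774567 to 87788797, plus strand), was at 1946 and 2444 in CD1 basal and at 0 and 0 in DNp63 basal. Set against a floor of 3 reads per library it was at least 162-fold lower (adjusted p = 2.38e-06). Csn2, the beta casein, was at 2784 and 3725 against 22 and 0, and its fitted difference was -7.72 (SE 0.76, adjusted p = 0.00517). That value depends on the constant added before taking logs, from -8.88 with 2 to -6.31 with 32. Csn1s1, the other alpha casein, was at 3535 and 3462 against 30 and 102 (-5.77, SE 0.51, adjusted p = 0.00425).

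Stretches before the starts of the casein genes are shown because these genes moved together by the largest amounts. STAT5, the factor activated by the prolactin receptor, recognises the pattern TTCNNNGAA, which reads the same on both strands. The RefSeq sequences (GRCm38) follow 5′ to 3′ along the gene, in lower case with matches to that pattern in capitals. For Csn1s1 and Csn1s2a they are the 250 bases before the start, and for Csn2, where 205 bases of that window lie in an exon of another annotated transcript of the gene, the match with 10 bases on either side.
Csn1s1, chr5:87665958-87666207, plus strand: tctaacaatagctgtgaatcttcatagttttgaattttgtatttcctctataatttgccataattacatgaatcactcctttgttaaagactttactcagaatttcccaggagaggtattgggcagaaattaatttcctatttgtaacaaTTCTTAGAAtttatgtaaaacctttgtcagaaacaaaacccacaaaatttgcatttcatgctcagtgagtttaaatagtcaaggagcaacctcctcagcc
Csn2, chr5:87699500-87699528, minus strand: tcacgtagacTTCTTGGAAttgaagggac
Csn1s2a, chr5:87774200-87774449, plus strand: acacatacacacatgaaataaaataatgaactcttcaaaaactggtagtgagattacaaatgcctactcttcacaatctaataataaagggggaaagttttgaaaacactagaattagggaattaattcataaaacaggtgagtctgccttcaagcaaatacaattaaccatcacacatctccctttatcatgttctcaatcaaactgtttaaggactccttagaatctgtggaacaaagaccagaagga
The pattern occurred 1 time in the Csn1s1 stretch, beginning 100 bases before the start, and 1 time in the 250 bases of Csn2, beginning 93 bases before it. No match lay in the stretch of Csn1s2a or in that of Lalba, which says only that these letters are not in those windows. Of 32851 start sites in the RefSeq table, 7.02% had a match in the same 250 bases. For 12 of the 19 milk genes listed a promoter was in the table, and 3 of these 12 had a match. The GENCODE model of Csn1s2a begins downstream of the RefSeq start.

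Lalba, the alpha-lactalbumin that completes the lactose synthase, was at 692 and 603 in CD1 basal and at 5 and 39 in DNp63 basal (-4.74, SE 0.54, adjusted p = 0.0101). Spp1, the secreted glycoprotein osteopontin, was at 2944 and 4172 against 38 and 92 (-5.70, SE 0.97, adjusted p = 0.0438). Csn3, the kappa casein, was less reduced than these, at 4876 and 4053 against 789 and 1054 (-2.28, SE 0.24, adjusted p = 0.00723). Btn1a1, a protein of the milk fat globule membrane, fell by 2.54 (SE 0.44, adjusted p = 0.0472). Of 15 milk genes tested, 7 were lower and 0 higher, with a median of -2.23 and 6 differences above 0. The median stays the same with Csn1s2a set at its bound, but it was -0.91 over the 17 genes that a lower filter admits, -1.49 without DNp63 basal 1 and -1.62 without CD1 basal 1. Xdh and Plin2, both proteins of milk fat secretion, had differences of 0.01 and 0.12 and were not called. Of 20 fatty acid and milk lipid genes 1 was higher and 0 lower. Voom called fewer, namely 3 of the milk list, 1 of the 24 shared luminal genes, 2 of the hormone-sensing and 1 of the tight junction genes, whereas the simple keratins had 4 calls in both. Leaving out a basal library left 1 (CD1 basal 1), 4 (CD1 basal 2), 4 (DNp63 basal 1) or 5 (DNp63 basal 2) milk genes called. Without DNp63 basal 1 the differences of Csn1s1 and Lalba were -4.99 and -3.80, and without DNp63 basal 2 they were -6.55 and -5.68, so the size depended on the library. For Csn2 these values were -8.69 and -6.77. Without CD1 basal 1 none of Csn1s1, Csn2 and Lalba was called (adjusted p of 0.0616, 0.0733 and 0.102), and without CD1 basal 2 Lalba was not. Csn3 was not called without CD1 basal 1 or DNp63 basal 1 (adjusted p of 0.0935 and 0.0824). Btn1a1, at -1.91 to -3.17, and Spp1 (adjusted p of 0.203 to 0.237) were not called in any fit without 1 basal library.

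The same milk genes were low in the luminal gate of DNp63 mice. Csn1s2a was at 14772 and 10721 in CD1 luminal and at 28 and 24 in DNp63 luminal, and Csn2 at 22750 and 20234 against 73 and 423. The difference between the gates was not called for any of the 7 milk genes (adjusted p of 0.426 to 0.995). Ltf, lactoferrin, an antibacterial iron-binding protein of milk, was at 3370 and 1322 in CD1 basal and at 173 and 329 in DNp63 basal (-3.11, SE 0.43, adjusted p = 0.0189). Of the fits without 1 basal library it was called in the 1 without CD1 basal 2 (-3.78), and it was at -2.43 without CD1 basal 1 and -2.65 without DNp63 basal 1. Folr1, a folate receptor, had 9 and 20 reads in CD1 basal against 1 and 1 in DNp63 basal, a ratio of 13.7 with a 95% counting interval of 3.47 to 119 (adjusted p = 0.0418). With Csn3, these were the 3 of 20 luminal progenitor and alveolar genes called lower, with 0 higher (median -0.83). Elf5, the regulator of alveolar cells, was at 358 and 292 against 119 and 175 and was not called (-1.12, adjusted p = 0.0879). Leaving out CD1 basal 1 moved that median to -0.34 and left 0 of the 20 called. Leaving out DNp63 basal 1 also left 0 called, with the median at -0.80.

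Slc12a2, the cotransporter of sodium, potassium and chloride, was the most abundant gene called lower, at 19054 and 27071 (CD1 basal) against 5130 and 5217 (DNp63 basal). It fell by 2.14 (SE 0.28, adjusted p = 0.0165) and by 1.69 in the luminal gate (adjusted p = 0.0139). Erbb3, a receptor for neuregulins, fell by 1.06 (adjusted p = 0.0436), and Pfkfb3, which makes an activator of glycolysis, by 0.81 (adjusted p = 0.0327). 1500015O10Rik (Ecrg4), a secreted peptide precursor, was at 1511 and 2076 against 270 and 484 (-2.27, SE 0.35, adjusted p = 0.0354). In the fits without 1 basal library Slc12a2 was at -2.39 to -1.89, Pfkfb3 at -0.92 to -0.70 and 1500015O10Rik at -2.69 to -1.85, none of them called. 1500015O10Rik was one of 9 genes of the 84 that CD1 basal cells held at a higher level than CD1 luminal cells. For the other 75 the CD1 luminal mean was above the CD1 basal mean. Among the 35 genes called higher, the luminal mean was above the basal mean in 16 and below it in 17. The same share over all genes tested was not counted, so the split is a description only.

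Genes higher in DNp63 basal were more varied. Vcan, the proteoglycan versican of the extracellular matrix, was at 3356 and 4508 (CD1 basal) against 13622 and 23612 (DNp63 basal), a 4.59-fold rise on the same scale (SE 0.35 in log2 units, adjusted p = 0.0362). Pappa, a protease that cleaves binding proteins of insulin-like growth factors, was at 2047 and 3031 against 6571 and 7180 (1.46, SE 0.22, adjusted p = 0.0327). Cntn2, a contactin known from axons, was at 518 and 352 against 2348 and 1581 (2.15, SE 0.35, adjusted p = 0.0393). Each of these had non-overlapping groups, and none was called once any 1 of the 4 basal libraries was left out. Stra6, a receptor for retinol uptake, was at 10 and 32 against 169 and 334 (3.20, SE 0.55, adjusted p = 0.046), and was not called without CD1 basal 1 (2.62) or CD1 basal 2 (3.78). Stra6 was too low to be tested once a DNp63 basal library was left out. Its low values in the other groups mean that it entered the test only through both DNp63 basal libraries. With that limit, Stra6 was the 1 of 13 retinoid genes called. Acsl4, an acyl-CoA synthetase, rose by 1.16 (adjusted p = 0.0433), and Oacyl by 2.62 (adjusted p = 0.0166). Neither was called in any fit without 1 basal library (0.94 to 1.38 and 2.33 to 2.92).

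Regulators and receptors among the 35 genes included, named here after their values were seen, the transcription factor Klf5 (2903 and 2883 against 4873 and 5048, 0.77, adjusted p = 0.0205), the Wnt receptor Ror1 (0.95, adjusted p = 0.0453), the planar polarity receptor Ptk7 (0.75, adjusted p = 0.0362) and the arrestin Arrb1 (0.87, adjusted p = 0.0362). The heat shock gene Hspa1b was at 3448 and 4180 against 7798 and 6749 (0.93, SE 0.15, adjusted p = 0.0377), and it was the 1 of 18 heat shock and unfolded protein genes called. In the fits without 1 basal library it was at 0.79 to 1.06 and was not called. Dmbt1, a secreted scavenger receptor of mucosal defence, was at 28 and 16 in CD1 basal, 342 in DNp63 basal 1 and 2263 in DNp63 basal 2 (4.92, SE 0.74, adjusted p = 0.0327). The DNp63 libraries differed from each other several-fold, and without DNp63 basal 2 the difference was 3.57 and was not called, while without DNp63 basal 1 it was 6.29. It was not called without either CD1 basal library. In DNp63 luminal the gene was at 26146 and 55841. 1600014C10Rik, a protein-coding gene on chromosome 7, was at 197 and 212 against 2019 and 3008 (3.54, SE 0.27, adjusted p = 0.00262). In the luminal gate it was at 139 and 156 against 239 and 149, and the difference between the gates was called (3.25, adjusted p = 0.0221).

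A number of genes differed between the mice in both gates. Between DNp63 and CD1 luminal cells 4.37% of all genes tested were called, in either direction. Both gates shared a spread per gene in the same fit, so their calls were not independent and that share is no chance level. Of the 119 genes, 42 were also called in the same direction between the luminal cells, 18 of the 35 higher and 24 of the 84 lower. Without 1 basal library that number was 3 (CD1 basal 1), 20 (CD1 basal 2), 8 (DNp63 basal 1) or 15 (DNp63 basal 2). Some were near absent from one group. Sycp1, a protein of the meiotic synaptonemal complex, had 20 and 32 reads in CD1 basal against 0 and 0 in DNp63 basal, at least 8.12-fold lower, and it was also at 0 and 0 in DNp63 luminal against 160 and 208 in CD1 luminal. Zfp990, a KRAB zinc finger gene on chromosome 4 (145510759 to 145539188), was at 582 and 687 against 17 and 0 in the basal gate and at 1543 and 2912 against 3 and 0 in the luminal gate. Zfp985 (147553277 to 147585198) was lower too, at 170 and 152 against 17 and 10 (adjusted p = 0.0132), and Zfp991 (147132038 to 147180579), a neighbouring gene of the family, went the other way, with 1 and 2 reads in CD1 basal against 31 and 34 in DNp63 basal, a ratio of 22.9 (counting interval 7.49 to 114). Trim12a had 1 and 1 reads against 48 and 44, a ratio of 48.6 (13.1 to 407). Rpl29 was at 243 and 240 against 2074 and 2205 (3.10, SE 0.20, adjusted p = 0.00095), with 490 and 319 against 3236 and 3819 in the luminal gate, and Rpl26 rose by 1.96 (adjusted p = 0.0101). These zinc finger, Trim12 and ribosomal protein genes have near-identical copies or pseudogenes, so how the authors' counting shared out their reads is uncertain. The mixed backgrounds of the mice and the transgene cannot be told apart here.

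The test of the difference between the gates called 58 genes (0.343%), 9 of them among the 119. Of these, 8 were called lower in the basal gate and none of the 8 was called lower in the luminal gate, among them Krt18 (-1.39, adjusted p = 0.0379), Krt7 (-1.86, adjusted p = 0.0379), Krt19 (-1.54, adjusted p = 0.0169), Cldn4 (-1.77, adjusted p = 0.0158) and Prlr (-1.72, adjusted p = 0.0363). Krt19 was the 1 of the 119 called in opposite directions, at -0.95 in the basal gate and 0.59 in the luminal gate (adjusted p = 0.0282). Krt8 (-0.91, adjusted p = 0.0849), Foxa1 (-1.77, adjusted p = 0.0753) and Esr1 (-1.12, adjusted p = 0.121) were not called in this test. With any 1 basal or DNp63 luminal library left out, 4 to 7 genes were called for the difference between gates.

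**Figure D4:**
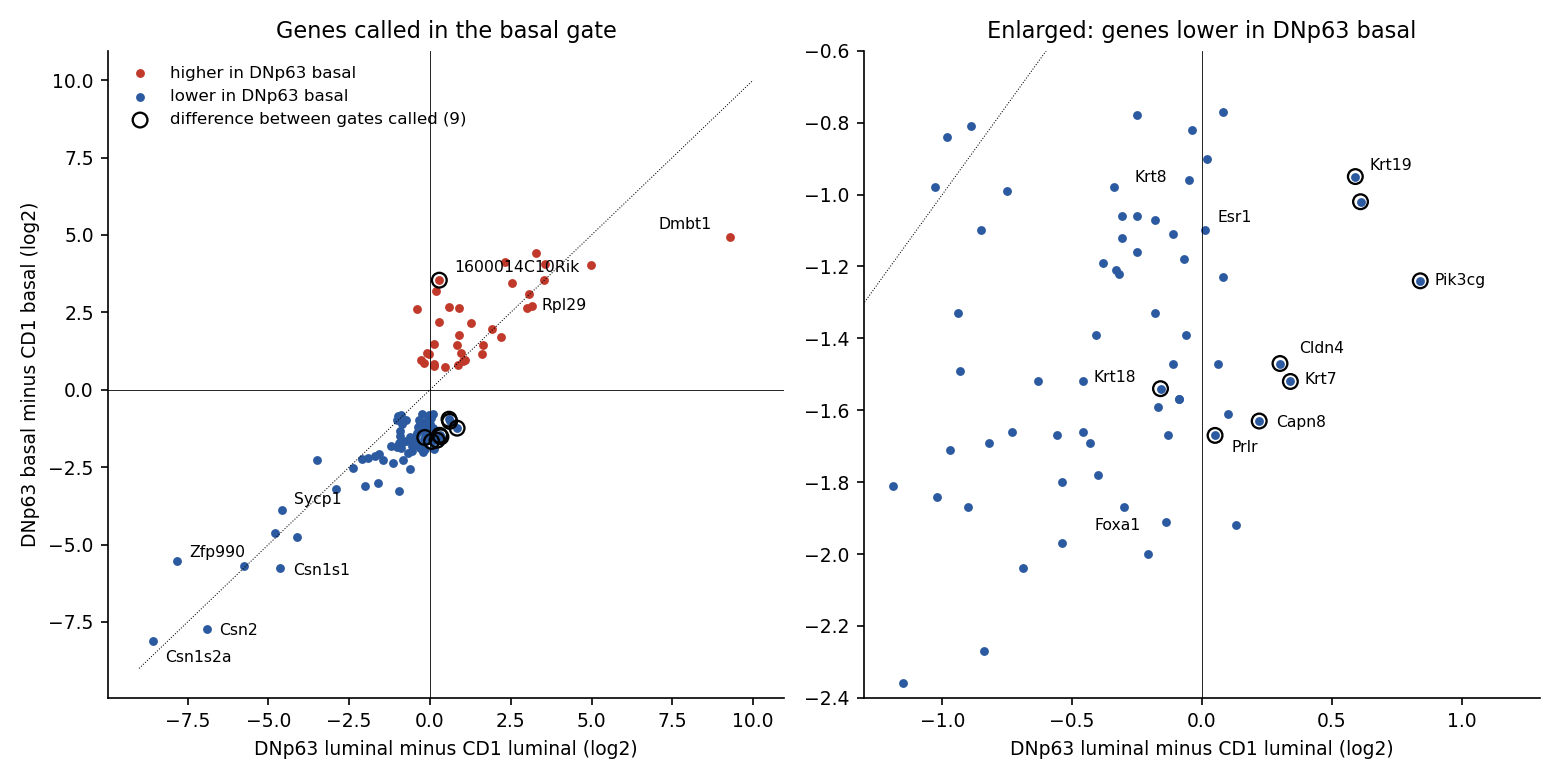
The 119 genes called in the basal gate, with the DNp63 minus CD1 log2 difference in the luminal gate on the x axis and in the basal gate on the y axis, in full (left) and enlarged for part of the lower genes (right). Circles mark the 9 genes whose difference between the gates was called, and on the dotted line both differences are equal. Milk genes such as Csn1s2a (-8.58 and -8.12) lie near the line, while Krt18, Krt7 and Prlr lie below it (-0.16, 0.34 and 0.05 in the luminal gate).

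Signalling pathways were little called. Of 24 Wnt genes 1 was lower (Wnt4), of 15 ErbB and EGF genes 1 was lower (Erbb3) and of 18 genes of glycolysis and hypoxia 1 was lower (Pfkfb3), with 8, 6 and 6 at an unadjusted p under 0.05. Of 13 genes of secretory defence Dmbt1 was higher and Ltf and Muc1 were lower. Limma called 0 of 19 Notch, 29 TGF beta and BMP, 17 FGF, 13 IGF, 22 p53 target and 17 genes of the epithelial to mesenchymal transition, of which 2, 5, 3, 3, 5 and 2 had an unadjusted p under 0.05. Over all genes tested it was 1902 of 16900. The 2 of 19 Notch genes and the 2 of 17 genes of the epithelial to mesenchymal transition lay near that share. The other lists with such a count here lay above it, furthest for Wnt (8 of 24), ErbB and EGF (6 of 15) and glycolysis and hypoxia (6 of 18). No list was tested as a whole.

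Transcripts of other cell types and states also differed between libraries. Of 15 fibroblast genes tested 0 were called by limma or by voom, 6 had an unadjusted p under 0.05 and 15 had a difference above 0 (median 1.08), although CD140a, the protein of the fibroblast gene Pdgfra, had been gated out. Pdgfra was at 344 and 1018 in CD1 basal and at 1741 and 2978 in DNp63 basal (1.92, adjusted p = 0.365). The summed fibroblast list was at 26568 and 62036 against 89939 and 114376, so CD1 basal 1 was the lowest library and both DNp63 libraries lay above both CD1 libraries. Without CD1 basal 1 the median was 0.62, without CD1 basal 2 it was 1.88 with 1 gene called, and without DNp63 basal 2 it was 1.11. Interstitial collagen and matrix genes, to which Vcan is related in function, had 20 of 24 differences above 0, a median of 0.81, 0 calls by limma or voom and 7 unadjusted p under 0.05. Fn1, fibronectin, was at 1493 and 6603 against 15957 and 18845 (2.46, adjusted p = 0.376). The part of fibroblast RNA in the rise of Vcan was not tested.

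Cell cycle genes were led by DNp63 basal 2. In 20 of the 28 tested both DNp63 libraries lay above both CD1 libraries, against 19.8% of all genes tested. The list sum was 11559 and 11825 in CD1 basal, 15669 in DNp63 basal 1 and 26894 in DNp63 basal 2. Mki67, the marker of cycling cells, was at 619, 923, 1396 and 6073 in the same order, and was not called (1.93, adjusted p = 0.418). Of 28 genes limma called 0 and voom 1, 10 had an unadjusted p under 0.05 and 24 had a difference above 0. Their median was 0.83, and that median was 0.35 without DNp63 basal 2 and 1.09 without DNp63 basal 1. Antigen presentation genes were also highest in DNp63 basal 2, with H2-K1 at 9175 and 7206 in CD1 basal, 6967 in DNp63 basal 1 and 18188 in DNp63 basal 2.

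Immediate-early genes, which cell dissociation can induce, had 18 of 22 differences below 0 (median -0.36), and in 15 both DNp63 libraries were below both CD1 libraries, while limma and voom called 0 and 13 had an unadjusted p under 0.05. Their sum was 498842 and 531156 against 390954 and 393137, and Fos was at 84061 and 88206 against 56990 and 60455 (-0.56, adjusted p = 0.127). Endothelial genes had 16 of 16 differences below 0 (median -0.29), with sums of 76565 and 73924 in CD1 basal, 71242 in DNp63 basal 1 and 52437 in DNp63 basal 2. Cdh5, the cadherin of endothelium, was at 15016, 14684, 15106 and 11042, so CD31-negative sorted cells of both groups still held such transcripts. Of 11 pericyte and vascular muscle genes limma called 0, and 8 differences were below 0 (median -0.22). Rgs5, a member of that list, was at 8776, 10073, 8451 and 6933 (-0.3, adjusted p = 0.624). All 12 adipocyte differences were below 0 (median -0.74) with 0 called and 3 unadjusted p under 0.05. Adipoq, the hormone of fat cells, was at 37 to 160 and Fabp4, which capillaries also express, was at 18903, 21865, 20504 and 13967. Immune transcripts were low throughout, with list sums of 1365 to 2135, and Ptprc, which encodes the CD45 protein gated out, was at 165, 96, 30 and 126. The part of any of these in the genes called was not tested.

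**Figure D5:**
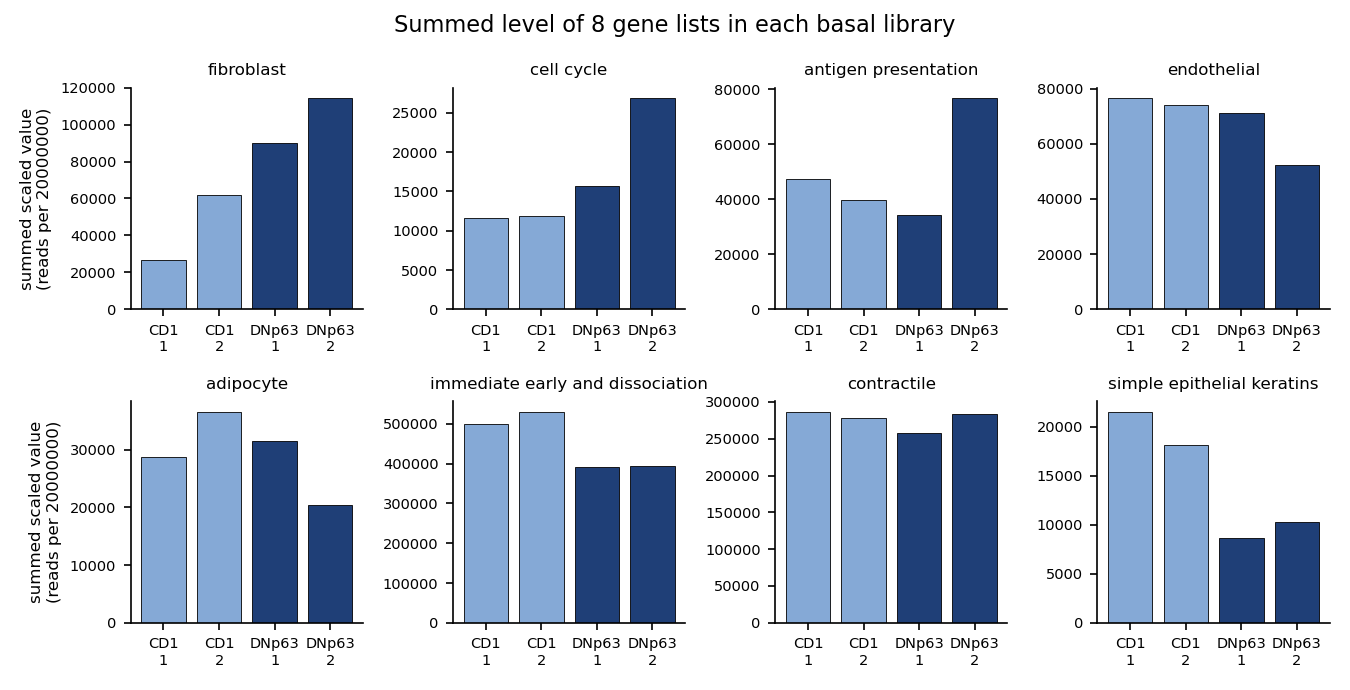
Summed scaled value (reads per 20000000) of 8 gene lists in each of the 4 basal libraries, light bars CD1 and dark bars DNp63. The fibroblast sum runs from 26568 in CD1 basal 1 to 114376 in DNp63 basal 2, the cell cycle and antigen presentation sums are highest in DNp63 basal 2, and the simple keratin sum is lower in both DNp63 libraries (8642 and 10236) than in both CD1 libraries (21537 and 18163).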

How the data were processed

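RNA from sorted mouse mammary cells was prepared with the Absolutely RNA nanoprep kit, made into libraries with the Ovation Solo kit, per the labels' protocols. The deposited values are a score: gene counts that the authors scaled to 20000000 per library, and every value is a whole number, rounded up. STAR, HTSeq and the mouse build GRCm38 (mm10) are named in the submitters' processing notes; their versions, the annotation used and whether counting used strand were not given. The value of 1 read was found from the steps between low values, and 99.82% to 99.93% of values then came out whole after rounding up, against 20.7% to 36.0% by chance. The 8 libraries held 4136983 to 7206703 reads so recovered.

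Of 49671 genes, the 16900 that reached 40 in 2 or more libraries were tested. Values were TMM-scaled (trims of 30% and 5%, computed directly), log2(value + 8) was taken, and limma 3.58.1 (R 4.3.3) fitted 4 group means with a trend of variance on level (degrees of freedom 4 residual, 4.597 prior). Tests were two-sided with Benjamini-Hochberg adjustment over all genes tested, called at 0.05. Fold changes are on the log2(value + 8) scale, which understates those of low genes. The same fit gave the difference between gates. Against a group at 0, folds are lower bounds from a floor of 3 reads per library. Counting intervals are exact at the 95% level and, like the floor, cover counting error only. The fit was tested on simulated data.

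Named by rule were the markers Krt15, Lgals7, Krt18 and Csn1s2a, 8 lineage genes, up to 3 called genes per list and direction, the 15 highest and 15 lowest called protein-coding genes without group overlap and with a mean of at least 100 in the higher group, and the most abundant member of each list for other cell types or library quality. Other genes named were chosen after their values were seen. The lists come from general knowledge, and lists, markers and comparison were chosen with earlier results of these data known. Coordinates are from GENCODE M21 (GRCm38), in which 49412 of the gene identifiers were found.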

Additional observations from a re-analysis of the deposited data

Results flagged for a closer look

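For 5 genes with values above, the DNp63 minus CD1 difference in the basal gate departed from that in the luminal gate by limma's test of that difference. The value was -1.39 for Krt18 (adjusted p = 0.0379), -1.86 for Krt7 (adjusted p = 0.0379) and -1.72 for Prlr (adjusted p = 0.0363), which were lower in the basal gate of DNp63 mice and were not called in the luminal gate. It was -4.06 for Trp63 (adjusted p = 0.000551), which rose in the luminal gate. It was 3.25 for 1600014C10Rik (adjusted p = 0.0221), which rose in the basal gate. With 2 libraries a group no single library could be tested as standing apart from its group.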

How the results depend on the processing

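All of the 119 genes that a setting tested kept their direction in each of the 20 alternatives. Their groups did not overlap, so this was all but fixed in advance. Of the 119 genes, 61 stayed called with the 4 basal libraries alone and 50 with voom on recovered reads. Counts called were 64 with voom and 32 without the intensity trend (119 as reported), for higher genes 54 with a pseudocount of 32 and 16 without trend, and for lower genes 44 with the 4 basal libraries, 24 with voom and 16 without trend. The split of higher against lower genes was thus 52 to 44 with the basal libraries alone and 40 to 24 with voom. Named genes called were 28 with voom and 15 without trend (48 as reported), and list members called 18 and 7 (37). For the difference between gates, genes called were 98 (pseudocount 32), 16 (voom), 13 (no trend) and 95 (robust estimation) against 58, and named genes 8, 3 and 1 in the first 3 of these against 5. Fewer libraries leave fewer degrees of freedom, and the cause of the other shifts was not tested.

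Leaving out 1 library gave 3 to 194 genes called, 2 to 71 higher, 1 to 123 lower, 2 to 48 named genes and 1 to 51 list members, and for the difference between gates 4 to 175 genes and 1 to 6 named genes. Csn1s2a and Rpl29 were called in all 20 alternatives and Krt18 in 18. With the replicate block 187 genes were called, 70 of them higher, and 121 genes (10 named) for the difference between gates. Same-numbered CD1 and DNp63 basal libraries deviated together at r = 0.0414 over all genes, which cannot exclude a pairing that acts on some genes. Same-numbered luminal and basal libraries deviated together at 0.341 (CD1) and 0.267 (DNp63), and the labels do not say whether these share a mouse. With the block Cldn3, Cited1, Wnt4, Vcan and Oacyl joined the named genes called between gates, and Krt8, Foxa1 and Esr1 stayed uncalled (adjusted p of 0.0813, 0.0677 and 0.112).

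Differences that were not called and turned sign without 1 library were Krt14 (-0.09 to 0.19), Acta2 (-0.16 to 0.05), Cdh5 (-0.42 to 0.01), Xist (-8.65 to 0.01), Pmp22 (-0.37 to 0.21) and Ckm (-0.38 to 0.37). Ckm was also at 0.02 (basal libraries alone), 0.00 (no TMM), 0.01 (median-of-ratios scaling), 0.01 (pseudocount 32) and 0.03 (voom). At 4136983 to 5009825 reads a basal library, genes that reached 40 (about 8 to 10 reads) in fewer than 2 libraries were not tested.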
